A study of Mus musculus with 12 samples.

Results

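Adult intestinal stem cells were compared with the embryonic gut epithelium from which the adult lining develops, gene by gene, in 6 of the 12 libraries of an RNA-seq series on mouse small intestine. The members were the 3 libraries titled as Lgr5+ intestinal stem cells (ISC) and the 3 titled as embryos of the earlier stage (E12.5), chosen by their titles alone, and all genes were described. ISC libraries were made from crypt cells with high Lgr5-EGFP fluorescence, 1 gut each, from Lgr5EGFP-Cre-ERT males that were 2 months old (P60). E12.5 libraries were made from pools of 20 embryos each, sorted as EpCAM-positive, CD31-negative, CD45-negative and DAPI-negative cells. Both groups carry the strain label mixed C57BL/6 CD1, and no treatment is given for either. The sources used here give neither the genotype and sex of the embryos nor whether the reporter allele of the adults was heterozygous. For the E12.5 libraries the age label reads E14.5 while the title gives the earlier stage. The titles were followed, so the embryonic stage rests on them. The comparison sets the adult stem cell beside the epithelium before villi form, with age, sex, sorting gate, dissociation and pooling all differing together, so that their shares cannot be told apart.

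Gene counts totalled 15104540, 17023849 and 22496396 in ISC and 28115882, 19655654 and 24660139 in E12.5. Replicates differed by more than sampling noise in each of the 6 pairs within a group, where the chi-square divided by its degrees of freedom was 12.52 to 49.7. On a principal component analysis of the 6 libraries, the first component held 94.3% of the variance and separated the groups. Levels are given in counts per 1000000 counts in genes, scaled by the trimmed mean of M values (CPM), and genes are listed as replicate 1, 2 and 3. CPM is not divided by transcript length, so levels are compared between libraries and not between genes. The libraries are bulk, so a smaller number of cells of one kind and less RNA per cell cannot be told apart.

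As background, the crypt base columnar cell is the Wnt-dependent stem cell of the adult gut. It expresses the R-spondin receptor Lgr5, lies between Paneth cells and gives rise to absorptive enterocytes and to the goblet, Paneth, enteroendocrine and tuft lineages. The epithelium of the early mid-gestation embryo is a proliferating pseudostratified tube that signals to the underlying mesenchyme through Hedgehog ligands and later folds into villi. Digestion of milk and then of solid food, contact with bacteria and the closing of many fetal growth programmes all fall between these stages.

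The epithelial label of both groups was checked first. Epcam, the adhesion molecule used in the embryonic sort, had 1096, 1033 and 998 CPM in the ISC libraries and 509, 429 and 512 CPM in the E12.5 libraries. Cdh1, the epithelial cadherin, had 1575, 1467 and 1813 CPM in the ISC libraries and 797, 692 and 730.1 CPM in the E12.5 libraries. Krt8, Krt18 and Krt19, which encode simple-epithelial keratins, averaged 477, 363 and 1010.0 CPM in ISC and 97.2, 119.8 and 219 CPM in E12.5. Both groups thus held all 5 epithelial markers, each at the higher level in ISC. Ptprc, which encodes CD45, and Pecam1, which encodes CD31, averaged 0.336 and 0.347 CPM in ISC and 0.0229 and 0.631 CPM in E12.5. The embryonic cells were sorted on EpCAM, CD31 and CD45, so the E12.5 levels of these genes check the sort and are not a finding. Lgr5 had 498, 473 and 551 CPM in the ISC libraries and 30.9, 21.5 and 21.9 CPM in the E12.5 libraries. The ISC levels did not overlap those of E12.5, but the adult cells were gated on the reporter at this locus, so the difference is a check of the labels and not a finding.

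Of 15342 genes tested, 10513 differed at an adjusted p under 0.05 by the edgeR quasi-likelihood F test (68.5%), 5199 with the higher level in ISC (33.9%) and 5314 with the lower (34.6%). Such genes are called higher or lower below. At least 2-fold differences were called for 6307 genes (41.1%), 2963 genes higher (19.3%) and 3344 genes lower in ISC (21.8%), and at least 8-fold differences for 1010 higher (6.58%) and 1676 lower (10.9%). The 3 ISC libraries lay wholly above or wholly below the 3 E12.5 libraries in 11338 genes (73.9%). The median log2 fold change over all tested genes, ISC minus E12.5, was -0.01, a value that the scaling sets near 0. Of the calls, 49.5% were higher in ISC under this scaling, 45.2% under relative log expression scaling and 44.1% with DESeq2, and the large differences were more often decreases in ISC. Of the tested genes, 443 had 0 counts in every ISC library and 112 had 0 counts in every E12.5 library. Shares in the text for a gene list are to be read against these percentages, which are high.

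**Figure D1:**
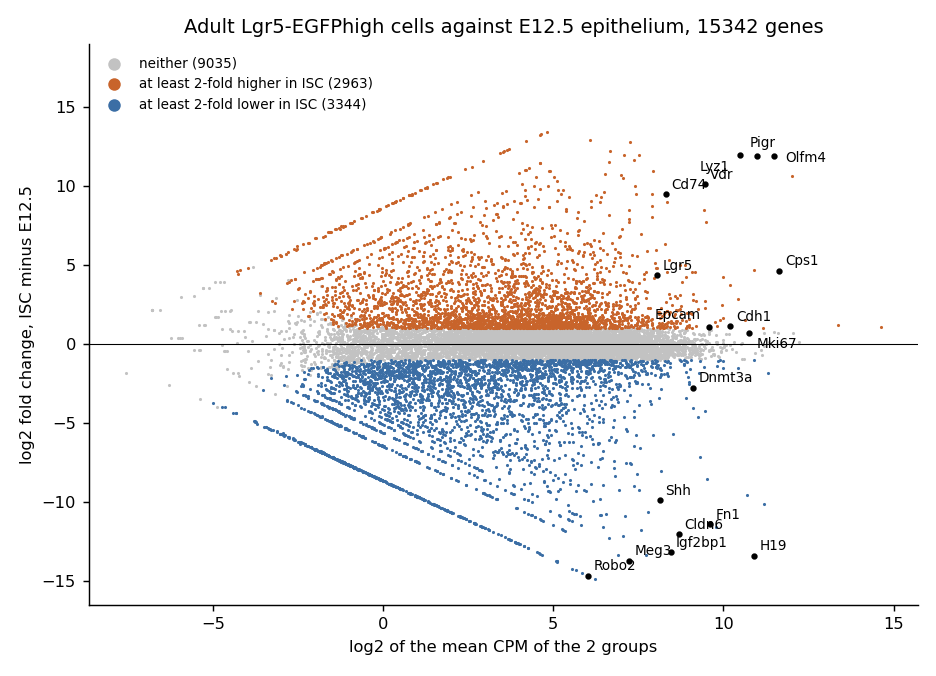
Each point is 1 of the 15342 tested genes, with the log2 of the mean CPM of ISC and E12.5 on the horizontal axis and the log2 fold change (ISC minus E12.5) on the vertical axis. Orange points are the 2963 genes called at least 2-fold higher in ISC, blue points the 3344 called at least 2-fold lower, grey points the rest, and the slanting rows of points hold genes with 0, 1 or a few counts in one group.

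Of the 10 largest increases without overlap among genes of at least 20 CPM in either group, 7 had no count in any E12.5 library. Cd177, which encodes a GPI-anchored surface glycoprotein best known from neutrophils, had 41.4, 47.1 and 78.6 CPM in the ISC libraries and no count in E12.5, at least 1504-fold higher when E12.5 is set to a floor of 3 counts over its libraries (log2 fold change 13.46, SE 0.60, adjusted p = 1.01e-09 in the fit). Ces2e, a carboxylesterase, had 41.3, 45.1 and 23.6 CPM and no count in E12.5, at least 989.6-fold higher. AI427809, an uncharacterised gene, had 21.1, 28.4 and 20.6 CPM and was at least 630.4-fold higher. Clec2h, a lectin-like surface protein of the gut, had 23.1, 37.8 and 14.6 CPM and was at least 678-fold higher. The other members included Ang4, Ctss, the alpha-defensin gene Defa17 and the unnamed models Gm14851 and Gm15284. Gm14851 and Gm15284 had 3 counts each in E12.5, and they and Defa17 share over 20% of their transcript stretches with other genes.

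Of the 10 largest decreases 9 had no count in any ISC library. Palm3, a paralemmin, had 132, 118 and 197 CPM in E12.5, at least 2839.7-fold lower in ISC. Robo2, a receptor for Slit guidance cues, had 124, 134 and 129 CPM in E12.5, at least 2459-fold lower. Tdh, the threonine dehydrogenase known from mouse embryonic stem cells, had 115, 117 and 112 CPM and was at least 2182-fold lower. Alpl, the tissue-nonspecific alkaline phosphatase, had 72.1, 67.5 and 65.7 CPM and was at least 1304-fold lower. Slitrk4 and Pcdh11x, which encode neuronal adhesion proteins, had 92, 91.8 and 98.5 CPM and 56.3, 79.4 and 68.9 CPM in E12.5. Gjc1, a connexin gene, had 63.9, 66.6 and 74.5 CPM, and Prrg3, a membrane Gla protein gene, had 101, 95.3 and 106 CPM. In each of these genes every embryonic library was above 50 CPM, and Palm3 was highest in E12.5 replicate 3. Gli3 and Meg3 complete the set and are described with Hedgehog signalling and the imprinted genes.

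Genes of the crypt stem-cell list were higher in ISC in 27 of 33 tested members and lower in 5, with 23 and 4 past 2-fold, and the median log2 fold change was 2.73. The list was drawn from adult Lgr5 cells in the field, so its direction is partly fixed by its source. Olfm4, a secreted glycoprotein of crypt base cells, had 5671, 5558 and 6000.4 CPM in the ISC libraries and 0.834, 0.666 and 2.97 CPM in the E12.5 libraries (log2 fold change 11.89, SE 0.45, adjusted p = 1.99e-11). All E12.5 levels were below 3 CPM, with replicate 3 the highest. Ascl2, the Wnt-responsive transcription factor that maintains the stem-cell state, had 82.9, 112 and 148 CPM in the ISC libraries and 3.3, 1.87 and 1.83 CPM in the E12.5 libraries (log2 fold change 5.59, SE 0.29, adjusted p = 5.08e-10). Clca4, a member of the calcium-activated chloride channel regulator family, had 7553, 7390.3 and 9732 CPM in the ISC libraries and 6.61, 2.44 and 6.27 CPM in the E12.5 libraries, and Slc14a1, a urea transporter gene, had 255, 217 and 285 CPM in the ISC libraries and 0.225, 0 and 0.183 CPM in the E12.5 libraries. In these 4 genes no ISC library overlapped an E12.5 library. Mex3a, an RNA-binding protein also used as a marker of slow-cycling Lgr5 cells, went the other way. It had 25.3, 32 and 36.4 CPM in the ISC libraries and 202, 201 and 201 CPM in the E12.5 libraries (log2 fold change -2.68, SE 0.16, adjusted p = 2.43e-09).

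**Figure D2:**
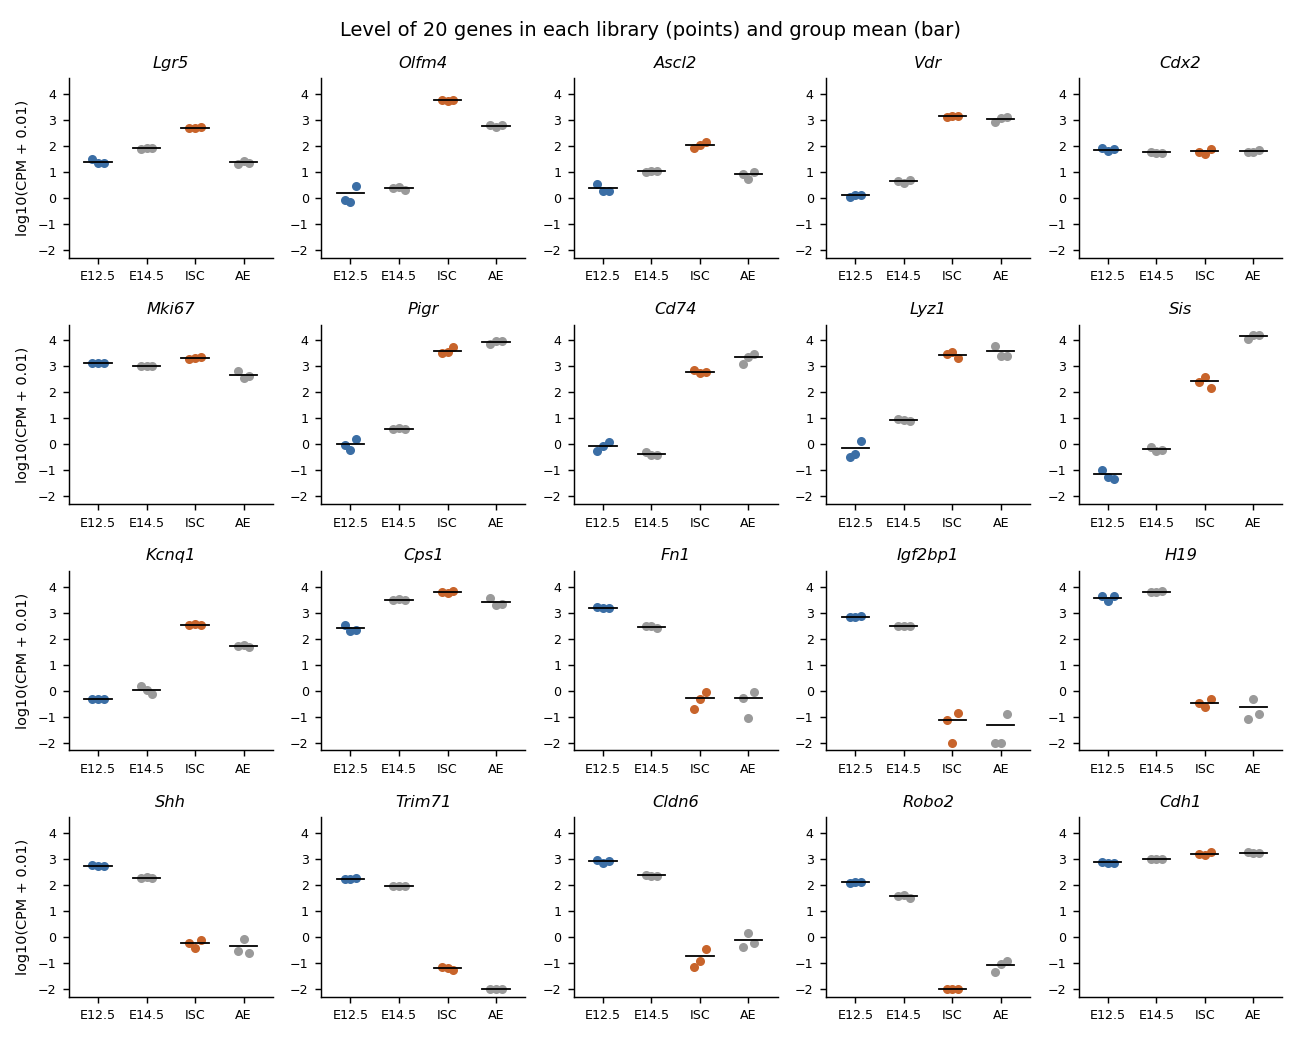
Each panel plots log10(CPM + 0.01) of 1 gene in every library (points) with the group mean (bar) for E12.5 (blue), ISC (orange) and, for context in grey, E14.5 and adult enterocytes (AE). Lgr5, Olfm4, Ascl2, Vdr, Pigr, Cd74, Lyz1, Sis, Kcnq1 and Cps1 were higher in ISC than in E12.5, while Fn1, Igf2bp1, H19, Shh, Trim71, Cldn6 and Robo2 were lower and Cdx2 overlapped.

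Frizzled receptors and secreted Wnt inhibitors were mostly lower in ISC, while feedback and target genes picked after their values were seen were higher. Wnt ligands act through Frizzled receptors and LRP co-receptors to stabilise beta-catenin. Of the list of Wnt targets and receptors, 8 of 36 tested members were higher and 25 lower, and the median log2 fold change was -1.07. When the members were divided by role, a division made after their values were seen, 8 of 9 Frizzled receptors were lower and 1 higher, and 5 of 5 tested secreted inhibitors of the Sfrp, Dkk, Wif1 and Notum genes were lower. Among feedback and target genes picked in the same division from this list and the stem-cell list, 10 of 10 were higher. The stem-cell list comes from adult Lgr5 cells, so this count is partly fixed by its source. Further lower members of the Wnt list, such as Ror1 below, fall in none of these groups. Dkk3, of the Dickkopf family, had 0.19, 0.218 and 0.087 CPM in the ISC libraries and 69, 56 and 65.6 CPM in the E12.5 libraries (log2 fold change -8.61, SE 0.25, adjusted p = 2.18e-12). Ror1, a receptor of the non-canonical branch, had 5.81, 7.68 and 4.95 CPM in E12.5 and no count in ISC, at least 117-fold lower. Cd44, a hyaluronan receptor and Wnt target of crypts, had 453, 398 and 571 CPM in the ISC libraries and 2.37, 1.24 and 1.69 CPM in the E12.5 libraries (log2 fold change 8.04, SE 0.27, adjusted p = 6.49e-12). Axin2, the feedback inhibitor often read as a Wnt target, was chosen after its values were seen and had 573, 592 and 716 CPM in the ISC libraries and 24.6, 24.7 and 29.5 CPM in the E12.5 libraries (log2 fold change 4.58, SE 0.14, adjusted p = 3.65e-12).

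Notch pathway genes moved in both directions. Of 19 tested members 10 were higher and 7 lower in ISC. Dll1, a ligand that crypt secretory cells present to stem cells, had 32.8, 31.8 and 34.1 CPM in the ISC libraries and 2.05, 1.82 and 2.93 CPM in the E12.5 libraries (log2 fold change 3.85, SE 0.21, adjusted p = 9.88e-10). Notch3, a receptor, had 1.39, 2.83 and 2.83 CPM in the ISC libraries and 111, 114 and 115 CPM in the E12.5 libraries (log2 fold change -5.56, SE 0.29, adjusted p = 5.64e-10). Nrarp, a Notch target, was at 27.1, 27 and 27.5 CPM in ISC and 1.89, 0.799 and 1.28 CPM in E12.5, but 77.3% of its transcript stretches occur in another gene, so its count is uncertain.

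Hedgehog and BMP pathway genes were lower in ISC in 23 of 27 tested members and higher in 3, and the median log2 fold change was -2.77 (-2.11 with genes at 0 counts set to their bound). In the gut, epithelial Hedgehog ligands act on mesenchymal Patched receptors and Gli factors, and BMP ligands restrain crypt formation. Both tested Hedgehog ligands and all 7 tested receptors, Gli factors and Hhip were lower, as were 4 of 4 BMP ligands and 3 of 3 tested antagonists. Shh, the main Hedgehog ligand of the early gut, had 0.57, 0.381 and 0.783 CPM in the ISC libraries and 581, 555 and 555 CPM in the E12.5 libraries (log2 fold change -9.88, SE 0.24, adjusted p = 4.11e-13). Shh shares 23.6% of its transcript stretches with another gene. Gli3, a Hedgehog-regulated factor that acts mainly as a repressor, had 67.4, 73 and 67.6 CPM in E12.5 and no count in ISC, at least 1321-fold lower. Bmpr1b, a BMP receptor, had 25.3, 31 and 30.7 CPM in E12.5 and no count in ISC, at least 553-fold lower. The 3 higher members were Id1, Id3 and Id4, inhibitors of differentiation that respond to BMP, while Id2 was lower (log2 fold change -3.30). Id1 had 96.6, 67.4 and 33.3 CPM in the ISC libraries and 4.33, 4.44 and 4.22 CPM in the E12.5 libraries (log2 fold change 3.92, SE 0.30, adjusted p = 3.93e-08), with ISC replicate 3 the lowest of the ISC libraries. Markers of mesenchyme also fell in this comparison, as described with the other cell types, and their part in the Gli and Grem values was not tested.

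Transcription factors of intestinal identity were called in both directions. Of 37 tested members 16 were higher and 13 lower, and the median log2 fold change was -0.03. The share of decreases was close to the 34.6% of all genes, and that of increases was above their 33.9%. Cdx2, the homeobox factor that specifies the intestine, had 60.1, 50.4 and 75.1 CPM in the ISC libraries and 80.3, 62.2 and 76.7 CPM in the E12.5 libraries. Its ranges overlapped and its log2 fold change was -0.24 with a 95% interval of -0.55 to 0.07 (adjusted p = 0.153). Without ISC replicate 3 it was -0.42 with an adjusted p of 0.0151. Hnf4a, a nuclear receptor of enterocyte genes, had 1642, 1546 and 1879 CPM in the ISC libraries and 325, 265 and 314 CPM in the E12.5 libraries (log2 fold change 2.49, SE 0.13, adjusted p = 6.10e-10). Vdr, the vitamin D receptor, had 1317, 1377 and 1486 CPM in the ISC libraries and 1.12, 1.29 and 1.32 CPM in the E12.5 libraries (log2 fold change 10.13, SE 0.22, adjusted p = 2.06e-13). Among the identity factors of at least 5 CPM, Vdr had the largest change. Prdm1, the repressor known to hold back adult enterocyte genes in the late fetal and suckling gut, had 2.85, 2.12 and 1.61 CPM in the ISC libraries and 612, 543 and 560.1 CPM in the E12.5 libraries (log2 fold change -8.05, SE 0.34, adjusted p = 6.88e-11). Onecut1, a factor of liver, pancreas and early endoderm, had 18.6, 16.9 and 19 CPM in E12.5 and 1 count in ISC, and 52.3% of its transcript stretches are shared. Foxa1, a pioneer factor of endoderm, had 36.4, 34.3 and 35.9 CPM in the ISC libraries and 244, 197 and 179 CPM in the E12.5 libraries, whereas Foxa3 had 20.6, 17.8 and 22.3 CPM in the ISC libraries and 6.96, 5.06 and 4.81 CPM in the E12.5 libraries.

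Position and patterning genes changed within their families. Of 17 tested Hox genes 11 were lower and 4 higher in ISC. Hoxb9 had 6.34, 8.88 and 6.87 CPM in the ISC libraries and 0.193, 0.178 and 0.257 CPM in the E12.5 libraries (log2 fold change 5.10, SE 0.55, adjusted p = 1.61e-06). The 4 higher genes were Hoxb5, Hoxb6, Hoxb8 and Hoxb9, all of the Hoxb cluster, while every tested gene of the Hoxa, Hoxc and Hoxd clusters was lower, as were Hoxb2 and Hoxb3. Of 39 Hox genes in the files 17 were tested. Of the tested ones 5 share over 20% of their transcript stretches with other genes, so their values are uncertain. Levels were low, and the 39 genes summed to 31.1, 46.4 and 47.9 CPM in ISC and 64.7, 61.6 and 66.6 CPM in E12.5. Sox11, a progenitor factor of many embryonic tissues, had 0.127, 0.381 and 0.304 CPM in the ISC libraries and 422, 457 and 445 CPM in the E12.5 libraries (log2 fold change -10.60, SE 0.22, adjusted p = 1.78e-13). It belonged to the 5 of 11 tested Sox genes that were lower, against 2 higher, among them Sox13 at log2 fold change 0.86. Leaving out ISC replicate 2 raised the lower count to 8. Sox2, a foregut factor, did not pass the filter on low counts. Foxp2, a forkhead factor, had 22.1, 47.7 and 20.3 CPM in E12.5 and 1 count in ISC. Over all 23 tested forkhead genes 8 were lower, close to the share of all genes, and 4 higher, below that share. Of 331 tested Zfp genes 120 were lower and 78 higher, which is close to the share of all genes for decreases and below it for increases. Zfp521, a progenitor-associated factor, had 101, 98.7 and 94.3 CPM in E12.5 and 3 counts in ISC.

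Oncofetal genes were lower in ISC in 22 of 24 tested members and higher in 1, and the median log2 fold change was -6.00 (-5.56 with genes at 0 counts set to their bound). Genes of this kind, such as the Lin28 and Igf2bp RNA-binding proteins, support growth in embryos and are silent in most adult tissue. Igf2bp1, which stabilises growth-related mRNAs, had 0.0634, 0 and 0.13 CPM in the ISC libraries and 688, 666 and 736 CPM in the E12.5 libraries (log2 fold change -13.18, SE 0.29, adjusted p = 2.10e-13). Trim71, a let-7 target and RNA-binding ubiquitin ligase, had 169, 170.0 and 194 CPM in E12.5 and 3 counts over the 3 ISC libraries. Sall4, a zinc-finger factor of embryonic stem cells, had 100.3, 96.8 and 86.2 CPM in E12.5 and 2 counts in ISC. Lin28b, an inhibitor of let-7 maturation, had 0.253, 0.163 and 0.217 CPM in the ISC libraries and 26.8, 38.5 and 36 CPM in the E12.5 libraries (log2 fold change -7.29, SE 0.27, adjusted p = 1.71e-10). No ISC library reached 1 CPM in any of these 4 genes. The exception in the list was Fgfbp1, a secreted carrier of fibroblast growth factors, with 47, 44.9 and 26.9 CPM in the ISC libraries and 2.7, 1.02 and 1.39 CPM in the E12.5 libraries (log2 fold change 4.50, SE 0.34, adjusted p = 3.51e-08).

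Imprinted genes, which are read from 1 parental allele and often regulate fetal growth, were lower in ISC in 27 of 38 tested members, 20 of them at least 8-fold, and higher in 4, and the median log2 fold change was -5.18 (-4.88 with genes at 0 counts set to their bound). H19, a noncoding RNA of the Igf2 locus, had 0.317, 0.218 and 0.478 CPM in the ISC libraries and 4456, 2726 and 4283 CPM in the E12.5 libraries (log2 fold change -13.40, SE 0.38, adjusted p = 1.79e-12). Igf2, the fetal growth factor next to it, had 3.93, 4.79 and 3.87 CPM in the ISC libraries and 5059, 4512 and 4583 CPM in the E12.5 libraries, with 62.1% of its transcript stretches shared with another gene, so its count is uncertain. E12.5 replicate 2 was the lowest of its group in both. Cdkn1c, the imprinted cell-cycle inhibitor p57, had 1.33, 2.45 and 1.91 CPM in the ISC libraries and 183, 130.3 and 154 CPM in the E12.5 libraries (log2 fold change -6.34, SE 0.25, adjusted p = 3.42e-11). Of its transcript stretches 24.9% are shared with another gene, so this count is uncertain too. Kcnq1, a potassium channel gene of the same imprinted domain as Cdkn1c, went the other way, with 324, 357 and 347 CPM in the ISC libraries and 0.449, 0.489 and 0.477 CPM in the E12.5 libraries (log2 fold change 9.49, SE 0.21, adjusted p = 2.12e-13). Its ISC and E12.5 levels each varied by little between libraries.

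Decreases of imprinted genes lay side by side on the genome. Among 15270 tested genes that could be placed in order along the chromosomes, the longest run of neighbours that were all at least 2-fold lower held 24 genes, from Begain through Dlk1, Meg3, Rtl1, Rian and Mirg to Dio3. Of these, 21 had no count in any ISC library, and the 24 genes held 24 counts in all over the 3 ISC libraries. Of the 24 genes 4 share over 20% of their transcript stretches with other genes, so their separate values are uncertain. They are AF357425, DQ267100, Mir134 and Mir377. For AF357426, AF357359 and AF357355 no shared sequence could be computed. This Dlk1-Dio3 domain carries paternally expressed coding genes and maternally expressed noncoding RNAs that host many small RNAs. Meg3, a maternally expressed long noncoding RNA, had 280.3, 327 and 296 CPM in E12.5 and 1 count in ISC. Rian, a noncoding RNA that hosts small nucleolar RNAs, had 0.507, 0.599 and 0.13 CPM in the ISC libraries and 244, 255 and 227 CPM in the E12.5 libraries (log2 fold change -9.26, SE 0.31, adjusted p = 6.82e-12). Dlk1, a paternally expressed membrane protein of the Notch-ligand family, had 32.6, 23.6 and 22.9 CPM in E12.5 and no count in ISC, at least 502-fold lower. Genes of 10 miRNA hairpins were in the run, and neighbouring transcripts overlap there, so their counts are reads over the locus in a library of long RNA and not levels of the mature miRNA. The 3 with the most E12.5 counts were Mir673 with 211, Mir1188 with 147 and Mir3070b with 119, each with 0 in ISC. Their mature sequences, from RefSeq on GRCm38.p6, are shown because they identify what the domain encodes, 5′ to 3′ with the seed (bases 2 to 8) in capitals. No 2 of the 6 arms share a seed.
miR-673-5p, chr12:109572004-109572025, plus strand: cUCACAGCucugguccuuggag
miR-673-3p, chr12:109572044-109572066, plus strand: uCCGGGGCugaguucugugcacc
miR-1188-5p, chr12:109611841-109611861, plus strand: uGGUGUGAgguugggccagga
miR-1188-3p, chr12:109611877-109611901, plus strand: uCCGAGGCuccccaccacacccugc
miR-3070-5p, chr12:109588608-109588630, plus strand: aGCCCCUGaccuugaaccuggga
miR-3070-2-3p, chr12:109588648-109588669, plus strand: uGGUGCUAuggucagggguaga

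In all, 93 runs of at least 4 neighbours were lower and 75 were higher by at least 2-fold. The second longest run held 20 gamma-protocadherin genes, Pcdhga1 to Pcdhgc3, all lower, with a median log2 fold change of -2.46. All 20 share over 20% of their transcript stretches with each other through common exons, so their separate values are uncertain. A run of 13 lower genes held Bex1, Bex2, Bex4 and Tceal family genes, which are best known from neural tissue, with a median of -3.82. Of its genes 6, among them Bex1, Bex2 and Bex4, share over 20% of their transcript stretches with other genes, so their separate values are uncertain. A run of 8 lower genes with a median of -9.04 held the imprinted Ndn, Magel2, Mkrn3 and Peg12. The longest run of higher genes held 16 genes of the major histocompatibility complex (MHC), from H2-DMa to Notch4, and a run of 11 held alpha-defensin genes. All 11 share over 20% of their transcript stretches with other genes, so their separate values are uncertain. These runs were chosen for their length, so their directions are descriptions.

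**Figure D3:**
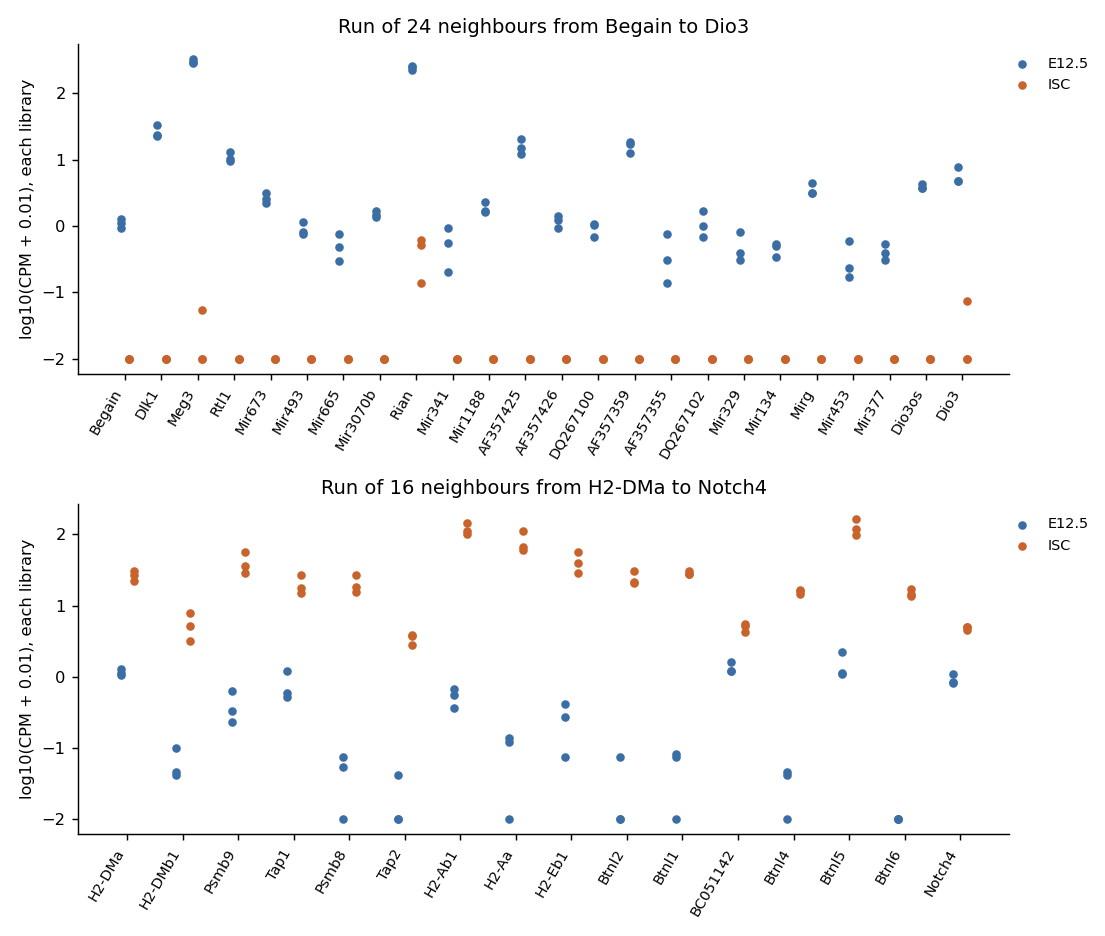
Log10(CPM + 0.01) in each E12.5 library (blue) and each ISC library (orange) is plotted for neighbouring tested genes in chromosome order, with -2 standing for 0 counts. In the upper panel 21 of 24 genes from Begain to Dio3 had no count in ISC, and in the lower panel every ISC point of the 16 genes from H2-DMa to Notch4 lay above every E12.5 point of the same gene.

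Extracellular matrix and basement-membrane genes were lower in ISC in 38 of 46 tested members, all of them past 2-fold, and higher in 3, and the median log2 fold change was -3.50 (-3.14 with genes at 0 counts set to their bound). Fn1, fibronectin, had 0.19, 0.49 and 0.913 CPM in the ISC libraries and 1668, 1483 and 1552 CPM in the E12.5 libraries (log2 fold change -11.41, SE 0.35, adjusted p = 2.82e-12). Lama1, the laminin chain of early embryonic basement membranes, had 194, 207 and 202 CPM in E12.5 and 2 counts in ISC. Col4a1, a chain of basement-membrane collagen, had 0.253, 0.0545 and 0.174 CPM in the ISC libraries and 102, 99.1 and 100.3 CPM in the E12.5 libraries (log2 fold change -9.27, SE 0.30, adjusted p = 5.19e-12). Of 10 tested laminin chains 8 were lower and 1 higher, and of 38 tested collagen genes 27 were lower and 4 higher. Nid2, a basement-membrane linker, was one of the higher members, with 24.6, 22.7 and 25.7 CPM in the ISC libraries and 2.31, 2.44 and 2.75 CPM in the E12.5 libraries (log2 fold change 3.28, SE 0.15, adjusted p = 1.59e-10). Col3a1 and Col1a1, fibroblast collagens, averaged 10.8 and 2.2 CPM in E12.5. Whether mesenchymal RNA had a part in the matrix values was not tested.

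Cell adhesion and junction genes differed in both directions. Of 50 tested adhesion and guidance genes 28 were lower and 19 higher. Cdh2, the neural cadherin, had 83.1, 73.1 and 78.2 CPM in E12.5 and 1 count in ISC. L1cam, a cell adhesion molecule of the immunoglobulin family, had 119, 142 and 166 CPM in the ISC libraries and 2.95, 2.31 and 3.3 CPM in the E12.5 libraries (log2 fold change 5.63, SE 0.27, adjusted p = 2.67e-10). Tight-junction and keratin genes were higher in 23 of 33 and lower in 8. Cldn6, a claudin of embryonic epithelia, had 0.0634, 0.109 and 0.348 CPM in the ISC libraries and 901, 721 and 838 CPM in the E12.5 libraries (log2 fold change -12.03, SE 0.34, adjusted p = 1.68e-12). Cldn15, which forms paracellular cation channels in the gut, had 143, 159 and 181 CPM in the ISC libraries and 3.56, 4.31 and 4.07 CPM in the E12.5 libraries (log2 fold change 5.34, SE 0.21, adjusted p = 3.11e-11). Each of these claudins was high in one group with no overlap. Cldn18, a claudin of stomach and lung, had 4.84, 10.3 and 2.79 CPM in E12.5 and no count in ISC.

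Cytoskeletal and channel genes also differed in both directions. Microvillus genes were higher in 19 of 30 and lower in 8. The lower ones included the membrane-to-actin linkers Msn (moesin), with 0.253, 0.272 and 0.391 CPM in the ISC libraries and 49.1, 50.8 and 50.2 CPM in the E12.5 libraries, and Rdx (radixin), with 0.253, 0.49 and 0.783 CPM in the ISC libraries and 50.1, 62.4 and 57.3 CPM in the E12.5 libraries. Eps8l3, of the family that caps and bundles microvillar actin, had 220.3, 242 and 283 CPM in the ISC libraries and 4.56, 1.2 and 0.514 CPM in the E12.5 libraries, with E12.5 replicate 1 the highest of its group, and shares 27.8% of its stretches with another gene. Tubulins were lower in 7 and higher in 4 of 13. Tubb4a, a beta-tubulin best known from brain, had 0.76, 0.926 and 0.522 CPM in the ISC libraries and 184, 147 and 148 CPM in the E12.5 libraries (log2 fold change -7.78, SE 0.27, adjusted p = 8.74e-12). Kinesin motors were lower in 13 of 36, close to the 34.6% of all genes, and higher in 5, below the 33.9% of all genes. Kif7, a regulator of Gli processing in cilia, had 1.2, 0.872 and 0.304 CPM in the ISC libraries and 15.5, 15.4 and 19.9 CPM in the E12.5 libraries (log2 fold change -4.48, SE 0.34, adjusted p = 3.93e-08), and Kif1a, an axonal transport motor, had 0.127, 0.109 and 0.174 CPM in the ISC libraries and 38.9, 33.5 and 31.1 CPM in the E12.5 libraries. Rab GTPases were lower in 20 and higher in 16 of 54, close to the shares of all genes. Rab34, which is needed for cilia in many cells, had 0.0634, 0.0545 and 0.217 CPM in the ISC libraries and 13.3, 11.8 and 12 CPM in the E12.5 libraries (log2 fold change -6.61, SE 0.30, adjusted p = 1.20e-10). Potassium channel genes were lower in 36 of 58 and higher in 14. Kcnq3, a channel of neurons, had 88.8, 85.9 and 89.6 CPM in E12.5 and 2 counts in ISC, the opposite of its relative Kcnq1.

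Genes of digestion and absorption were mostly higher in ISC than in E12.5. Brush-border hydrolases were higher in 15 of 20 tested members and lower in 1, and the median log2 fold change was 3.50. Sis, sucrase-isomaltase, had 253, 401 and 151 CPM in the ISC libraries and 0.0963, 0.0444 and 0.0367 CPM in the E12.5 libraries (log2 fold change 11.97, SE 0.53, adjusted p = 1.01e-10). Enpp7, the intestinal sphingomyelinase, had 5.2, 26.3 and 4.09 CPM in ISC and 3 counts in E12.5. ISC replicate 2 was the highest of the ISC libraries in both genes. The brush-border list summed to 2238, 3147 and 2115 CPM in ISC and 888, 751 and 784 CPM in E12.5, beside 34735, 70820.0 and 65363 CPM in the 3 adult enterocyte (AE) libraries, whose files list no multiply aligned reads. Enpp3, an ectonucleotide pyrophosphatase, was lower, with 1.33, 3.38 and 2.83 CPM in the ISC libraries and 19.3, 19.9 and 21.6 CPM in the E12.5 libraries (log2 fold change -2.98, SE 0.47, adjusted p = 6.38e-05). The summed level of 17 villus enterocyte markers was 1828, 2500.4 and 1615 CPM in ISC and 548, 493 and 524 CPM in E12.5, so replicate 2 was the highest in ISC for the whole list too. Of these 17 markers 11 were higher and 2 lower, and the part of a few enterocytes in the ISC sort was not tested. Among the uncalled markers, Apoa1 had 28.3, 102 and 21.9 CPM in the ISC libraries and 38.4, 30.1 and 38.7 CPM in the E12.5 libraries, where 1 library carries the ISC mean (log2 fold change 0.50, adjusted p = 0.381). Dpp4, a peptidase of the brush border, had 188, 204 and 180.5 CPM in the ISC libraries and 233, 208 and 215 CPM in the E12.5 libraries with no call (log2 fold change -0.20, adjusted p = 0.465).

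Transport, lipid and xenobiotic genes held both gains and losses. Nutrient transporters were higher in 21 of 37 and lower in 9. Slc2a3, the high-affinity glucose transporter GLUT3, had 222, 228 and 261 CPM in E12.5 and 1 count in ISC. Slc5a1, the sodium-glucose transporter SGLT1 of the brush border, had 221, 302 and 236 CPM in the ISC libraries and 12.481, 8.44 and 11 CPM in the E12.5 libraries (log2 fold change 4.57, SE 0.31, adjusted p = 1.02e-08). Slc26a3, a chloride-bicarbonate exchanger, had 38.2, 36.6 and 27.2 CPM in the ISC libraries and 0.289, 0 and 0.147 CPM in the E12.5 libraries (log2 fold change 7.69, SE 0.33, adjusted p = 7.67e-11). Over all 302 tested solute carriers 142 were higher and 83 lower. Lipid absorption genes were higher in 24 of 36 and lower in 5. Abcg5 and Abcg8, the half-transporters that export plant sterols together, had 48.3, 47.7 and 48.4 CPM in the ISC libraries and 0.385, 0.933 and 0.44 CPM in the E12.5 libraries and 60.4, 66.4 and 55.7 CPM in the ISC libraries and 0.674, 0.533 and 0.44 CPM in the E12.5 libraries respectively. Scarb1, a receptor for high-density lipoprotein, was lower, with 3.99, 3.05 and 2.13 CPM in the ISC libraries and 30.8, 28.4 and 24 CPM in the E12.5 libraries (log2 fold change -3.20, SE 0.32, adjusted p = 6.02e-07). Xenobiotic-metabolism genes were higher in 32 of 45 and lower in 4, and the median log2 fold change was 3.20 (3.11 with genes at 0 counts set to their bound). Cyp2e1, an ethanol- and drug-oxidising cytochrome P450, had 63, 49 and 62.1 CPM in ISC and 2 counts in E12.5. Gsta4, a glutathione transferase, was lower, with 12.2, 14.3 and 15 CPM in the ISC libraries and 104, 95.6 and 98.8 CPM in the E12.5 libraries. Of 38 tested cytochrome P450 genes 25 were higher and 7 lower.

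**Figure D4:**
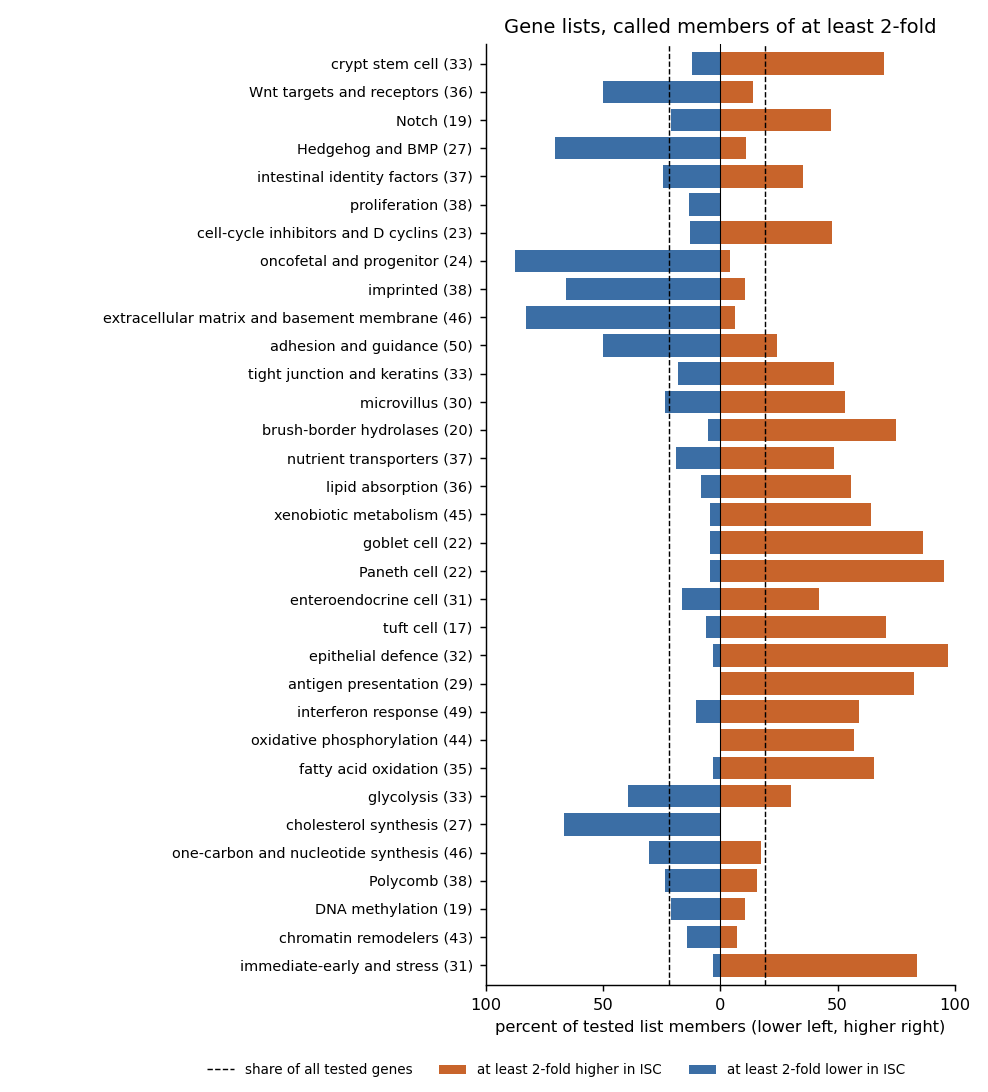
Bars give the percentage of tested members of each gene list that were called at least 2-fold higher (orange, to the right) or at least 2-fold lower in ISC (blue, to the left), with the number tested in parentheses. The dashed lines mark the same shares over all genes, 19.3% higher and 21.8% lower.

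Goblet-cell and Paneth-cell genes were mostly higher in ISC. Goblet-cell genes were higher in 20 of 22 tested members and lower in 1, and the median log2 fold change was 4.43. Muc2, the gel-forming mucin, had 603, 764 and 580.4 CPM in the ISC libraries and 1.16, 1.42 and 1.28 CPM in the E12.5 libraries (log2 fold change 8.98, SE 0.24, adjusted p = 1.17e-12). Agr2, a disulfide isomerase needed for mucin folding, had 142, 161 and 96.8 CPM in the ISC libraries and 1.44, 1.73 and 1.76 CPM in the E12.5 libraries (log2 fold change 6.34, SE 0.32, adjusted p = 3.64e-10). Fut2, a fucosyltransferase of mucin glycans, was lower, with 0.634, 0.763 and 0.652 CPM in the ISC libraries and 12.8, 10 and 10.7 CPM in the E12.5 libraries. Paneth-cell genes were higher in 21 of 22 and lower in 1, and the median log2 fold change was 9.92 (7.97 with genes at 0 counts set to their bound). Of the tested members 8 are uncertain for shared sequence. Lyz1, the Paneth lysozyme, had 2902, 3553 and 2088 CPM in the ISC libraries and 0.321, 0.400 and 1.36 CPM in the E12.5 libraries (log2 fold change 11.99, SE 0.58, adjusted p = 2.72e-10). Ang4, a microbicidal ribonuclease of Paneth cells, had 148, 159.9 and 95.3 CPM in ISC and 1 count in E12.5. ISC replicate 3 was the lowest ISC library for Lyz1 and Ang4, and the whole Paneth list summed to 3735, 4385 and 2492 CPM in ISC and 142, 131 and 135 CPM in E12.5. Paneth cells touch stem cells in the crypt, and the part of their RNA in these values was not tested. Habp2, a secreted serine protease, was the member that was lower, with 6.34, 9.91 and 6.83 CPM in the ISC libraries and 139.8, 129 and 131 CPM in the E12.5 libraries (log2 fold change -4.11, SE 0.23, adjusted p = 1.11e-09). Most of the E12.5 sum of the Paneth list was therefore Habp2.

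Enteroendocrine and tuft genes were changed less uniformly. Enteroendocrine genes were higher in 15 of 31 and lower in 5, and the lower count was 3 without E12.5 replicate 1. Tph1, which makes serotonin in enterochromaffin cells, had 7.1, 5.45 and 4.83 CPM in the ISC libraries and 0.0321, 0.178 and 0.0734 CPM in the E12.5 libraries (log2 fold change 5.97, SE 0.45, adjusted p = 3.14e-08). Chgb, a granule protein, had 99.6, 139.7 and 90.8 CPM in the ISC libraries and 45.6, 16.7 and 31.7 CPM in the E12.5 libraries (log2 fold change 1.81, SE 0.34, adjusted p = 2.75e-04), with a wide spread in E12.5. Rfx6, an endodermal factor required for islet and enteroendocrine cells, had 4.5, 6.65 and 4.22 CPM in the ISC libraries and 111, 137 and 116 CPM in the E12.5 libraries (log2 fold change -4.57, SE 0.18, adjusted p = 2.49e-11), and Cpe, a prohormone-processing enzyme, had 1.27, 2.07 and 1.7 CPM in the ISC libraries and 41.2, 37 and 44.5 CPM in the E12.5 libraries. Tuft-cell genes were higher in 13 of 17 and lower in 3. Their sum was nevertheless lower in every ISC library, 544, 544 and 625 CPM in ISC and 839, 829 and 724 CPM in E12.5. One lower member was Cd24a (log2 fold change -0.60, SE 0.12, adjusted p = 5.17e-04). It had 496, 483 and 565 CPM in the ISC libraries and 820, 810 and 704 CPM in the E12.5 libraries. Trpm5, the cation channel of taste-like signalling, had 5.89, 13 and 11.9 CPM in the ISC libraries and 0.545, 0.266 and 0.587 CPM in the E12.5 libraries (log2 fold change 4.42, SE 0.38, adjusted p = 1.28e-07). Dclk1, the usual tuft marker, had 6.21, 9.32 and 7.83 CPM in the ISC libraries and 2.53, 2.75 and 2.53 CPM in the E12.5 libraries (log2 fold change 1.58, SE 0.20, adjusted p = 7.37e-06). Trpm5 and Dclk1 did not exceed 13 CPM in any of the 6 libraries.

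Defence genes of the epithelium were higher in ISC in 31 of 32 tested members, all past 2-fold, and lower in 1, and the median log2 fold change was 5.82 (5.65 with genes at 0 counts set to their bound). Pigr, the receptor that carries immunoglobulin A across the epithelium, had 3202, 3631 and 5354 CPM in the ISC libraries and 0.93, 0.622 and 1.58 CPM in the E12.5 libraries (log2 fold change 11.90, SE 0.35, adjusted p = 2.44e-12). Reg3g, an antibacterial lectin that is induced by microbes, had 82.6, 31.1 and 32.3 CPM in ISC and 1 count in E12.5, with ISC replicate 1 above the other two. Itln1, an intelectin that binds microbial glycans, had 245, 251 and 103 CPM in the ISC libraries and 0.0321, 0 and 0.147 CPM in the E12.5 libraries (log2 fold change 11.55, SE 0.61, adjusted p = 7.31e-10). Tlr5, the flagellin receptor, was the member that was lower, with 1.33, 1.74 and 0.826 CPM in the ISC libraries and 99.6, 93.7 and 88.3 CPM in the E12.5 libraries (log2 fold change -6.20, SE 0.22, adjusted p = 1.31e-11).

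Antigen-presentation genes were higher in 25 of 29 tested members, 22 of them at least 8-fold, and the median log2 fold change was 4.54. Class I molecules show peptides from inside the cell after cutting by the immunoproteasome and transport by Tap1 and Tap2. Class II molecules show ingested peptides, with the invariant chain Cd74 as chaperone, cathepsin S trimming it and H2-DM loading the peptide. Divided by role after their values were seen, 11 of 11 class I pathway genes were higher, with a median of 4.25, and 8 of 8 tested class II pathway genes, with a median of 7.59. Further tested members of the list fall in neither group, among them the 4 that were not called. Cd74 had 727, 535 and 630.3 CPM in the ISC libraries and 0.545, 0.888 and 1.21 CPM in the E12.5 libraries (log2 fold change 9.49, SE 0.39, adjusted p = 5.25e-11). H2-Aa, the class II alpha chain, had 110.0, 65.9 and 59.8 CPM in the ISC libraries and 0.128, 0 and 0.11 CPM in the E12.5 libraries (log2 fold change 9.75, SE 0.63, adjusted p = 5.44e-09). Ctss, cathepsin S, had 49.4, 42.8 and 53.1 CPM in ISC and no count in E12.5, at least 1306-fold higher. Psmb8, Psmb9 and Psmb10, the immunoproteasome subunits, averaged 20.3 ± 6.09, 40.6 ± 14.8 and 38.9 ± 12.6 CPM (SD, n = 3) in ISC, and 0.0362 ± 0.0329, 0.389 ± 0.209 and 3.97 ± 1.12 CPM in E12.5. Of the other 34 tested proteasome genes 1 was higher and 11 were lower, none of them by 2-fold, a share of decreases no higher than the 34.6% of all genes. The lower ones included Psmd2, a subunit of the regulatory cap, at log2 fold change -0.91. Immune markers moved with these genes in part. Of 16 tested 7 were higher, each at least 2-fold, and 5 lower, and their summed level was 50, 47.7 and 44.1 CPM in ISC and 38.5, 41.7 and 36.6 CPM in E12.5. Ptprc, the pan-leukocyte gene, was higher, with 0.127, 0.49 and 0.391 CPM in the ISC libraries and 0.0321, 0 and 0.0367 CPM in the E12.5 libraries (log2 fold change 3.57, SE 0.85, adjusted p = 0.00195), as was Itgam, an integrin of myeloid cells, with 18.9, 19.9 and 20.1 CPM in the ISC libraries and 4.91, 3.55 and 3.23 CPM in the E12.5 libraries (log2 fold change 2.33, SE 0.20, adjusted p = 1.03e-07). For Itgam, 66.3% of the transcript stretches occur in another gene, so its count is uncertain. Whether leukocytes had a part in the values of the antigen-presentation genes was not tested.

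The MHC run described above joined class II genes, both Tap genes, Psmb8 and Psmb9 with the butyrophilin-like genes Btnl1, Btnl2, Btnl4, Btnl5 and Btnl6, some of which shape the gamma-delta T cells of the mouse gut epithelium. Btnl5 had 98.8, 118 and 162 CPM in the ISC libraries and 2.25, 1.11 and 1.1 CPM in the E12.5 libraries (log2 fold change 6.38, SE 0.36, adjusted p = 1.46e-09), and Btnl6 had 17.4, 14.8 and 13.7 CPM in ISC and no count in E12.5. Btnl1 had 27.9, 30.2 and 27.7 CPM in the ISC libraries and 0.0642, 0 and 0.0734 CPM in the E12.5 libraries (log2 fold change 9.04, SE 0.42, adjusted p = 1.80e-10). ISC replicate 1 was the highest library for H2-Aa, H2-Ab1 and Psmb9. The promoters of 3 class II genes and Tap1 are shown as examples from the run of higher neighbours. Each sequence is the 250 bases before the transcription start in RefSeq on GRCm38.p6, 5′ to 3′ on the strand of the gene. Capitals mark CCAAT or its reverse complement ATTGG, the core of the Y box of class II promoters, the only motif marked here. Some match on either strand was present in 34.5% of 27025 promoters of the same length. Of the 16 genes of the run 13 had a promoter entry, of which 7 held a match and 6 did not, among them H2-DMa and Psmb8.
H2-DMb1, chr17:34152941-34153190, plus strand: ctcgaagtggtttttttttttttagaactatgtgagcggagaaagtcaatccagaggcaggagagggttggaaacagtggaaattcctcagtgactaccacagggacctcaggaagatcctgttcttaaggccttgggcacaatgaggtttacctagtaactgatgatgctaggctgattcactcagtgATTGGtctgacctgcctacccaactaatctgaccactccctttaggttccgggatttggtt
H2-Aa, chr17:34287824-34288073, minus strand: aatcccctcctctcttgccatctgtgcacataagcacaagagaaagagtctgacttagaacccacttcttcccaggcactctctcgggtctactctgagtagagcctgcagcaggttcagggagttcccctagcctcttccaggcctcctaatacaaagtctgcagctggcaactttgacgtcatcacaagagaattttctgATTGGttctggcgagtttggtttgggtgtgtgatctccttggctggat
H2-Eb1, chr17:34305617-34305866, plus strand: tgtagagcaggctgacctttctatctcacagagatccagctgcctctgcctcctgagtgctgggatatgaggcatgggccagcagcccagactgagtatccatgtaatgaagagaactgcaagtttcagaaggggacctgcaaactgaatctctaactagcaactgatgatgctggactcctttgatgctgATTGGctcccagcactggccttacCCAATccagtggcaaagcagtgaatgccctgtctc
Tap1, chr17:34187306-34187555, plus strand: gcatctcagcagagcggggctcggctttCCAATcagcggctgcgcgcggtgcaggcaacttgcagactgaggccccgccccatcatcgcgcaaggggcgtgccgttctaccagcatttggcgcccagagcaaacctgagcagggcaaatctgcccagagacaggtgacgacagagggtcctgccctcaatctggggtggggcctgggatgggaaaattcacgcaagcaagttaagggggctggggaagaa
The match nearest the start began at position -61 in H2-DMb1, -48 in H2-Aa and -35 in H2-Eb1, counted from the start, and at -222 in Tap1. H2-Eb1 held a further match at -59. A match is a description and not a bound site.

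Interferon-response genes were higher in 38 of 49 tested members and lower in 6, and the median log2 fold change was 1.803. Xaf1, an interferon-induced apoptosis factor, had 7.16, 4.85 and 5.78 CPM in the ISC libraries and 0.193, 0.222 and 0.0734 CPM in the E12.5 libraries (log2 fold change 5.16, SE 0.42, adjusted p = 7.16e-08). Ifi27l1, named for its likeness to an interferon-induced gene, had 17.3, 16.3 and 15.5 CPM in the ISC libraries and 0.257, 0.133 and 0.0367 CPM in the E12.5 libraries (log2 fold change 6.74, SE 0.41, adjusted p = 2.82e-09). Ifit2, a classical interferon-induced gene that binds foreign RNA, was lower, with 6.15, 5.39 and 4.31 CPM in the ISC libraries and 85.9, 89 and 100.04 CPM in the E12.5 libraries (log2 fold change -4.13, SE 0.15, adjusted p = 1.89e-11).

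Cell-cycle genes were called in both directions. Proliferation genes were lower in 18 of 38 and higher in 2, with 5 past 2-fold, and the median log2 fold change was -0.40. Mki67, the proliferation antigen, was one of the 2 higher members, with 1857, 2118 and 2380.4 CPM in the ISC libraries and 1303, 1327 and 1351 CPM in the E12.5 libraries (log2 fold change 0.68, SE 0.18, adjusted p = 0.0044). Ccnb2, a mitotic cyclin, was the other, with 114, 105 and 131 CPM in the ISC libraries and 72.2, 61.9 and 67.4 CPM in the E12.5 libraries (log2 fold change 0.80, SE 0.18, adjusted p = 0.00106). The genes that were lower at least 2-fold included Ccne1, a cyclin of S-phase entry, with 6.08, 9.15 and 4.31 CPM in the ISC libraries and 25.1, 28.2 and 28.1 CPM in the E12.5 libraries (log2 fold change -2.07, SE 0.23, adjusted p = 2.07e-06), and Rrm2, the ribonucleotide reductase subunit, with 59.1, 55.3 and 50.7 CPM in the ISC libraries and 223, 217 and 235 CPM in the E12.5 libraries (log2 fold change -2.03, SE 0.25, adjusted p = 4.63e-06). Inhibitors of the cycle and D cyclins were higher in 14 of 23 and lower in 6. Cdkn2c, the inhibitor p18, had 10.8, 9.75 and 10.7 CPM in the ISC libraries and 0.16, 0.355 and 0.11 CPM in the E12.5 libraries (log2 fold change 5.67, SE 0.35, adjusted p = 3.23e-09), and Btg2, an antiproliferative gene that responds early to stress, had 458, 302 and 279 CPM in the ISC libraries and 27, 20.6 and 22 CPM in the E12.5 libraries (log2 fold change 3.90, SE 0.24, adjusted p = 3.97e-09). Replication-dependent histone genes were higher in 15 and lower in 4 of 49, but 39 of them share over 20% of their stretches.

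Most genes of mitochondrial respiration were higher in ISC. Nuclear genes of oxidative phosphorylation were higher in ISC in 44 of 44 tested members, 25 of them at least 2-fold, and the median log2 fold change was 1.08. Without ISC replicate 1 the 2-fold count was 16. Sdhb, the iron-sulfur subunit of complex II, had 65.8, 52.9 and 34.1 CPM in the ISC libraries and 19.7, 17.2 and 18.5 CPM in the E12.5 libraries (log2 fold change 1.46, SE 0.19, adjusted p = 1.19e-05). Uqcrq, a small subunit of complex III, had 29.3, 21.8 and 7.18 CPM in the ISC libraries and 4.81, 4.35 and 3.71 CPM in the E12.5 libraries (log2 fold change 2.16, SE 0.36, adjusted p = 1.06e-04). ISC replicate 3 was the lowest ISC library in both genes. Fatty acid oxidation genes were higher in 30 of 35 and lower in 2, and the median log2 fold change was 1.36. Ppard, a nuclear receptor of fatty acids, had 114, 100.2 and 159 CPM in the ISC libraries and 13.9, 8.97 and 8.84 CPM in the E12.5 libraries (log2 fold change 3.55, SE 0.21, adjusted p = 1.81e-09). Pparg, its relative, was lower, with 7.16, 6.97 and 4.48 CPM in the ISC libraries and 10.8, 8.75 and 8.84 CPM in the E12.5 libraries (log2 fold change -0.62, SE 0.20, adjusted p = 0.0131), and it missed the threshold without ISC replicate 3 (adjusted p = 0.0561) or E12.5 replicate 1 (adjusted p = 0.0583).

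Glycolysis genes were lower in 19 of 33 and higher in 11, and the median log2 fold change was -0.77. Ldhb, a lactate dehydrogenase subunit, had 2.34, 1.53 and 1.44 CPM in the ISC libraries and 48.4, 40.8 and 50.2 CPM in the E12.5 libraries, with 21% shared stretches. Pdk4, which closes pyruvate dehydrogenase, had 99.6, 80.1 and 30.1 CPM in the ISC libraries and 0.0642, 0.0888 and 0.0734 CPM in the E12.5 libraries (log2 fold change 9.78, SE 0.60, adjusted p = 3.21e-09), and Fbp1, a gluconeogenic enzyme, had 16.5, 14.545 and 10.4 CPM in ISC and 1 count in E12.5. Cholesterol synthesis genes were lower in 24 of 27 and higher in 1, and the median log2 fold change was -1.34. Sqle, squalene epoxidase, had 41.4, 32.3 and 32.6 CPM in the ISC libraries and 228, 212 and 203 CPM in the E12.5 libraries (log2 fold change -2.60, SE 0.18, adjusted p = 1.16e-08).

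One-carbon and nucleotide synthesis genes were lower in 22 of 46 and higher in 10. Gldc, the glycine decarboxylase, had 0.317, 0.163 and 0.217 CPM in the ISC libraries and 37.1, 35.5 and 38 CPM in the E12.5 libraries (log2 fold change -7.31, SE 0.30, adjusted p = 4.26e-11). The list also held urea and ornithine enzymes, of which 4 of 7 were higher and 1 lower, a division made after the values were seen. Cps1, carbamoyl phosphate synthetase, had 6385, 5509 and 6568 CPM in the ISC libraries and 326, 198 and 217 CPM in the E12.5 libraries (log2 fold change 4.64, SE 0.27, adjusted p = 2.11e-09). Otc, ornithine transcarbamylase, which uses the product of Cps1 to make citrulline in gut epithelium, had 231, 242 and 245 CPM in the ISC libraries and 2.44, 1.87 and 2.16 CPM in the E12.5 libraries (log2 fold change 6.78, SE 0.14, adjusted p = 1.78e-13). Both were higher in every ISC library than in any E12.5 library.

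Most ribosomal protein genes were higher in ISC. Cytosolic ones were higher in 64 of 74 and lower in 1, with 42 uncertain for shared sequence, and the median log2 fold change was 0.95. At least 2-fold increases numbered 32, or 19 without ISC replicate 1, 21 without ISC replicate 2, and 21 under relative log expression scaling. Rps13, a small-subunit protein gene without much shared sequence, had 32.6, 35.9 and 29.2 CPM in the ISC libraries and 6.03, 8.97 and 7.78 CPM in the E12.5 libraries (log2 fold change 2.10, SE 0.21, adjusted p = 5.16e-07). Mitochondrial ribosomal proteins were higher in 44 of 76, and the median log2 fold change was 0.47. Mrpl52 had 26.9, 24.9 and 13.3 CPM in the ISC libraries and 10.1, 8.66 and 9.1 CPM in the E12.5 libraries (log2 fold change 1.22, SE 0.23, adjusted p = 2.85e-04). Ribosome biogenesis genes did not follow, with 7 higher and 6 lower of 35. Npm1, a nucleolar chaperone, had 631, 662 and 731 CPM in the ISC libraries and 1304, 1181 and 1146 CPM in the E12.5 libraries (log2 fold change -0.84, SE 0.16, adjusted p = 2.80e-04), and 24.3% of its stretches are shared. These families have short transcripts, and length moved with the comparison. When tested genes were divided by transcript length into 5 equal bins, the median log2 fold change was 0.34 in the bin of shortest genes and -0.28 in that of longest genes. In the bin of shortest genes the ISC libraries lay 0.10, 0.05 and -0.14 from their own mean on the log2 scale, replicate 3 being the lowest. The cytosolic ribosomal list summed to 13033, 12565 and 8182 CPM in ISC, also lowest in replicate 3, and 6607, 5910 and 5892 CPM in E12.5. The medians of oxidative phosphorylation and cytosolic ribosomal genes were above that of the shortest bin. That bin spans 57 to 1865 bases and was not matched in length to these families. The part of transcript length in their values was not tested.

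Polycomb, DNA methylation and remodeler genes were lower more often than higher. Polycomb genes were lower in 19 of 38 and higher in 11, with 9 and 6 past 2-fold. This 2-fold share of decreases was close to the 21.8% of all genes. Cbx2, a chromodomain subunit of Polycomb repressive complex 1, had 29.1, 28.8 and 32.7 CPM in the ISC libraries and 163, 161 and 148 CPM in the E12.5 libraries (log2 fold change -2.38, SE 0.14, adjusted p = 3.03e-09). Asxl3, a partner of the H2A deubiquitinase, had 1.96, 3.7 and 2.44 CPM in the ISC libraries and 105, 100.1 and 104 CPM in the E12.5 libraries (log2 fold change -5.25, SE 0.21, adjusted p = 4.64e-11), and Phf19, an accessory subunit of Polycomb repressive complex 2, had 12, 9.21 and 10.5 CPM in the ISC libraries and 4.17, 2.18 and 3.04 CPM in the E12.5 libraries (log2 fold change 1.74, SE 0.23, adjusted p = 1.46e-05). DNA methylation genes were lower in 11 of 19 and higher in 4, with 4 and 2 past 2-fold, the decreases again close to the share of all genes. Dnmt3a, a de novo DNA methyltransferase, had 141, 137 and 151 CPM in the ISC libraries and 939.8, 934 and 1030.0 CPM in the E12.5 libraries (log2 fold change -2.76, SE 0.11, adjusted p = 2.74e-11). Zfp57, which protects methylation at imprinted loci, had 0.19, 0.0545 and 0.304 CPM in the ISC libraries and 35.3, 43.1 and 39 CPM in the E12.5 libraries (log2 fold change -7.64, SE 0.34, adjusted p = 1.24e-10). Zbtb38, which binds methylated DNA, had 371, 343 and 415 CPM in the ISC libraries and 42.5, 35 and 31.9 CPM in the E12.5 libraries (log2 fold change 3.37, SE 0.14, adjusted p = 4.73e-11). Remodelers were lower in 27 of 43 and higher in 11, most of them by less than 2-fold. Smarca1, an ISWI ATPase, had 42.1, 39.6 and 42.2 CPM in E12.5 and 3 counts in ISC, whereas Smarca2, an ATPase of the BAF complex, had 193, 210.4 and 295 CPM in the ISC libraries and 72.8, 60.4 and 76.7 CPM in the E12.5 libraries (log2 fold change 1.73, SE 0.15, adjusted p = 1.18e-07). Enzymes of H3K4, H3K27 and H3K36 methylation were lower in 11 of 32 and higher in 9, close to the shares of all genes, 34.6% and 33.9%. Kdm5b, an H3K4 demethylase, had 62.7, 72.1 and 66.7 CPM in the ISC libraries and 260.4, 279 and 254 CPM in the E12.5 libraries (log2 fold change -1.98, SE 0.10, adjusted p = 2.90e-10), and Prdm9, a methyltransferase best known from meiosis, had 14.1, 19.5 and 19.4 CPM in the ISC libraries and 2.41, 2.04 and 1.58 CPM in the E12.5 libraries (log2 fold change 3.13, SE 0.19, adjusted p = 2.92e-09).

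Immediate-early and stress genes were higher in ISC in 26 of 31 tested members and lower in 1, and the median log2 fold change was 2.84. Hspa1a, an inducible heat-shock chaperone, had 232, 152 and 98.6 CPM in the ISC libraries and 3.11, 0.666 and 1.28 CPM in the E12.5 libraries, with 66.3% of its stretches shared with another gene. Zfp36, which destabilises cytokine mRNAs, had 1058, 773 and 653 CPM in the ISC libraries and 65.6, 39.3 and 56.4 CPM in the E12.5 libraries (log2 fold change 3.94, SE 0.23, adjusted p = 1.68e-09). Klf2, a Kruppel-like factor, had 17.4, 11.4 and 6.52 CPM in the ISC libraries and 0.128, 0.178 and 0.293 CPM in the E12.5 libraries (log2 fold change 5.85, SE 0.51, adjusted p = 1.59e-07). Ctgf, a matricellular target of YAP, was lower, with 2.85, 1.25 and 0.696 CPM in the ISC libraries and 13.5, 11 and 11.6 CPM in the E12.5 libraries. The whole list summed to 14959, 11054 and 9683 CPM in ISC and 2494, 2004 and 2204 CPM in E12.5, highest in ISC replicate 1. Adult crypts were freed with EDTA and digested with collagenase and DNase, and embryonic gut was digested with collagenase, so dissociation and stage cannot be told apart for these genes. Unfolded protein response genes were higher in 10 of 28, close to the 33.9% of all genes, and lower in 7, below the 34.6% of all genes. Herpud1, a component of endoplasmic reticulum degradation, had 139, 91 and 47.5 CPM in the ISC libraries and 7.25, 9.9 and 6.53 CPM in the E12.5 libraries (log2 fold change 3.55, SE 0.38, adjusted p = 1.32e-06), again highest in ISC replicate 1. Pdia6, a disulfide isomerase, was lower, with 96.1, 96.6 and 70.8 CPM in the ISC libraries and 142, 133 and 170.1 CPM in the E12.5 libraries (log2 fold change -0.76, SE 0.22, adjusted p = 0.0082).

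Markers of other cell types were low in both groups with few exceptions. Mesenchyme and smooth-muscle markers were lower in ISC in 20 of 26 tested of 30 and higher in 3, and their sum was 16.8, 15.9 and 13.4 CPM in ISC and 226, 186 and 203 CPM in E12.5. Most of the E12.5 sum was Vim, vimentin, with 1.84, 2.83 and 1.61 CPM in the ISC libraries and 187, 139.5 and 153 CPM in the E12.5 libraries, while Pdgfra and Acta2 averaged 2.43 and 4.89 CPM in E12.5. Enteric neural markers were lower in 14 of 17 tested of 20 and higher in 1. Their sum was nevertheless higher in ISC, 229, 229 and 238 CPM in ISC and 106, 106 and 102 CPM in E12.5, because of Erbb3, a receptor that epithelium also expresses, with 223, 222 and 232 CPM in the ISC libraries and 73.4, 71.6 and 66.2 CPM in the E12.5 libraries. Sox10, the glial and neural crest factor, had no count in ISC and averaged 0.939 CPM in E12.5. Endothelial markers were lower in 4 and higher in 2 of 9 tested of 16, and their sum was 15.8, 14.8 and 14.3 CPM in ISC and 8.47, 10.4 and 8.55 CPM in E12.5, higher in every ISC library. Cdh5, the endothelial cadherin, was at 0 in ISC and averaged 0.815 CPM in E12.5. The higher members were Lyve1, a hyaluronan receptor of lymphatic vessels, with 7.86, 7.3 and 7.44 CPM in the ISC libraries and 1.76, 1.02 and 0.514 CPM in the E12.5 libraries, and Esam, an endothelial adhesion molecule, with 5.64, 5.34 and 4.74 CPM in the ISC libraries and 0.866, 1.15 and 1.36 CPM in the E12.5 libraries. Immune markers were higher in 7 and lower in 5 of 16 tested of 26, with the sum given beside the antigen-presentation genes. The higher count was 11 with no filter on low counts and 3 when ISC and E12.5 were fitted by themselves. Cd3e, of the T-cell receptor complex, had 0.634, 0.708 and 0.174 CPM in the ISC libraries and 0.0321, 0 and 0 CPM in the E12.5 libraries, and Gzmb, a granzyme, had 1.71, 0.708 and 0.0435 CPM in ISC and no count in E12.5. Cd68, of macrophages, had 12, 9.91 and 10.5 CPM in the ISC libraries and 19.6, 22.1 and 16 CPM in the E12.5 libraries, and its call was lost on leaving out any one of 5 libraries (adjusted p up to 0.102). Red-cell markers were lower in 4 of 6 tested of 13 and higher in 1, and their sum was 17.2, 12 and 13.2 CPM in ISC and 20.3, 32.8 and 28.2 CPM in E12.5. Alas2, the erythroid enzyme of haem synthesis, had 14.4, 8.61 and 10.5 CPM in the ISC libraries and 16.9, 28.5 and 25.1 CPM in the E12.5 libraries (log2 fold change -1.07, SE 0.23, adjusted p = 7.63e-04). Hba-a1 and Hbb-b1, globin genes with near-identical copies, were listed at 0 in all 6 libraries, and multiply aligned reads were not counted. Markers of pancreas, liver and stomach were lower in 7 and higher in 2 of 12 tested of 27, and 10 were at least 2-fold lower without ISC replicate 2 against 6 with all libraries. Afp, alpha-fetoprotein, which embryonic gut also expresses, had 0.127, 0.163 and 0.304 CPM in the ISC libraries and 66.5, 56.2 and 55.8 CPM in the E12.5 libraries (log2 fold change -8.12, SE 0.26, adjusted p = 5.33e-12).

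**Figure D5:**
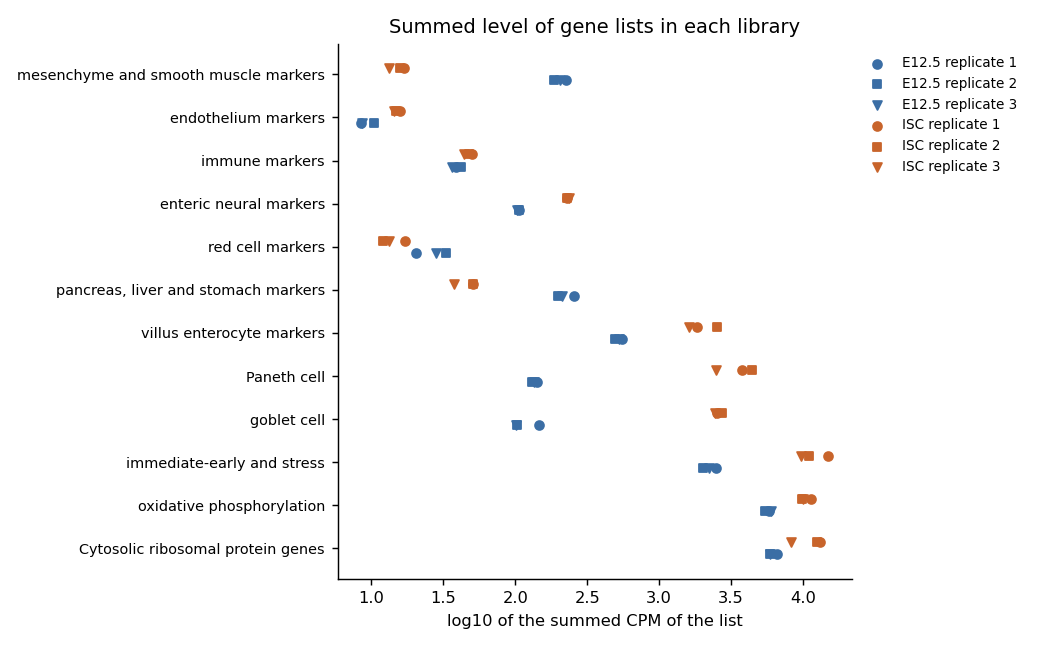
Log10 of the summed CPM of each gene list is plotted for each E12.5 library (blue) and ISC library (orange), with 1 marker shape per replicate number. Sums of mesenchymal markers, of red-cell markers and of pancreas, liver and stomach markers were lower in every ISC library. Sums of endothelial, immune and enteric neural markers were higher in every ISC library. The same held for the goblet, Paneth, villus, stress, oxidative phosphorylation and ribosomal protein lists.

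Sex-chromosome transcripts differed between the groups. Xist, the X-inactivation RNA of female cells, had 8.68, 9.7 and 7.96 CPM in the ISC libraries and 776, 1819.5 and 1180.3 CPM in the E12.5 libraries, and Eif2s3y, a Y-linked gene, had 76.2, 87 and 64.2 CPM in the ISC libraries and 32, 30.6 and 33.6 CPM in the E12.5 libraries (log2 fold change 1.24, SE 0.13, adjusted p = 1.03e-06). The embryonic pools held both transcripts, with Xist lowest in E12.5 replicate 1 and highest in replicate 2. Of 9 sex-chromosome genes 5 were higher and 2 lower, and sex and stage cannot be told apart for X-linked genes.

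Some genes were measured as level across the change. Of 3319 genes with at least 50 CPM in both groups, 1321 were not called, and in 233 of these the whole 95% interval of the log2 fold change lay within 0.3 of 0. The narrowest was Ociad1, an endosomal and mitochondrial protein gene, with 107, 103 and 106 CPM in the ISC libraries and 104, 107 and 112 CPM in the E12.5 libraries and an interval of -0.21 to 0.14. Ubp1, a transcription factor gene, had 165, 164 and 177 CPM in the ISC libraries and 167, 162 and 164 CPM in the E12.5 libraries. Lman2, a cargo receptor of the secretory pathway, had 157, 157 and 161 CPM in the ISC libraries and 169, 159.9 and 157 CPM in the E12.5 libraries. Plekha7, a protein of the adherens junction, had 94.9, 98.5 and 97.7 CPM in the ISC libraries and 89.9, 96.5 and 91.6 CPM in the E12.5 libraries. Mprip, a myosin phosphatase interactor, and Ralgapb, a Ral GTPase-activating subunit, had log2 fold changes of 0.05 and 0.09. The group ranges overlapped in 5 of the 6 genes and not in Ralgapb, where every ISC library was above every E12.5 library.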

How the data were processed

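Bulk RNA-seq counts of mouse small-intestinal epithelium were used, 1 table per library. The authors deposited raw read counts per gene, 23366 genes and 5 closing entries that name no gene; the closing entries were left out of totals and tests. Per the submitters' processing notes, the build was mm9 and the tools were HTSeq 0.6.1p1, STAR 2.3.1z13, DESeq2 1.6.3, SAMtools 1.2 and bcl2fastq 1.8.4. The sources used here do not give their roles, the annotation or whether counting used strand. Reads assigned to no gene were 46.0% to 58.1% of all reads in the 6 libraries. Per the labels' protocols, 50000 cells were sorted and cDNA was made from 50 ng of RNA, with no molecular identifiers named. Labels give 1 gut or 1 pool per library, so p-values measure the spread between those.

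Counts of all 12 libraries (4 groups of 3, which share 1 estimate of the spread) were fitted with edgeR 4.0.16 in R 4.3.3 by the quasi-likelihood F test, with TMM scaling, the default filter on low counts and Benjamini-Hochberg adjustment over the 15342 genes tested. The other 2 groups, E14.5 and AE, list no multiply aligned reads, whereas ISC and E12.5 do. Every adjusted p in the text comes from this fit unless another is named. Standard errors are the log2 fold change divided by the square root of F. A group with 0 counts was given a floor of 3 counts over the group (0.0525 CPM in ISC, 0.0371 CPM in E12.5), which covers counting error only. In data simulated from these libraries (14968 genes run), 59 of 70 genes changed by 1 on the log2 scale, 59 of 59 changed by 2 and 71 of 71 changed by 3 were called, with 5 false calls. The simulation gave every gene the same spread (biological coefficient of variation 0.154) and changed only these genes, none of low count. It therefore checks that the fit runs correctly and does not give the recovery or false calls of the real comparison.

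The comparison and the 60 gene lists (44 of symbols and 16 by name pattern) were chosen with earlier results of these data known. Genes were named by rule: the 10 largest changes each way at 20 CPM or more without overlap, up to 3 called members per list at 5 CPM or more and 1 of the opposite direction, set anchor genes, genes of the 3 longest runs, markers above 50 CPM and the 6 narrowest intervals among unchanged genes. Some genes that the rule names are not reported here. Other genes named with values were chosen after their values were seen, as were the divisions by role. Shared sequence is the share of 50-base stretches of a gene's GENCODE M21 transcripts found in another gene, and over 20% is called uncertain (1579 of the tested genes). Gene order came from RefSeq (99.5% of tested genes placed), and was used for neighbourhood alone, since the files use another build. Coordinates printed with a sequence are those of RefSeq on GRCm38.p6 and were not joined to the files. A comparison of promoter composition was void, since 78.3% of tested genes had a promoter entry and 80% were required. Alternatives were other scalings and filters, the 6 libraries alone, limma 3.58.1 (voom), DESeq2 1.42.0, the replicate number as a block and leaving out each library. Replicate numbers did not pair the samples.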

Additional observations from a re-analysis of the deposited data

Results flagged for a closer look

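Reads that the files list as multiply aligned, which no comparison used, made up 5.61% ± 0.487 (SD, n = 3) of all reads in ISC and 3.55% ± 0.453 in E12.5. Every ISC library was above every E12.5 library, and the difference was not tested. Their identity was not analysed here. Groups of 3 are too small for a check of single outlying libraries.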

How the results depend on the processing

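Counts of genes higher and lower in ISC stayed within 1.5 times of 5199 and 5314 under every alternative run. They were 4798 and 5827 under relative log expression scaling, 4955 and 6270 with DESeq2, 5120 and 5297 in the 6 libraries alone, and 4677 and 4831 for genes with little shared sequence, a set chosen after seeing the data. Leaving out 1 library gave 4864 to 5120 higher and 4976 to 5352 lower. The median log2 fold change of all genes shifted by -0.16 with DESeq2 and -0.09 under relative log expression scaling. The share of calls that were higher was 49.5% as reported and 44.1% with DESeq2. At the 8-fold rule, runs of at least 4 neighbours numbered 15 higher and 30 lower, a rule that fewer genes pass. With the replicate number as a block, 10190 genes were called in the 6 libraries. Deviations of same-numbered ISC and E12.5 libraries correlated at 0.028, 0.019 and 0.025, each the highest value for its number but under 0.1. Of 3360 settings of 240 named genes, 3351 kept direction and side of the threshold, 8 lost the call, 1 gained it and none reversed. The losses were Cd68 and Pparg, given above, and Apoc3 with limma-voom (adjusted p = 0.0683); the gain was Cdx2. Of 3360 settings of list counts, 107 moved by more than 1.5 times, 44 of them from a count of 5 or more, and the cause was not tested. The promoter-window alternatives were not run because that comparison was void.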

Other observations

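Genes known only by RIKEN clone names were called in both directions. Of 899 tested, 299 were higher and 239 lower in ISC, beside 33.9% and 34.6% of all genes tested, with a median log2 fold change of 0.11. D430019H16Rik had 27.9, 26.1 and 26.8 CPM in E12.5 and no count in ISC, at least 513-fold lower.

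Levels in the libraries of E14.5 epithelium are set beside those of E12.5 with no test, since their files list no multiply aligned reads. Igf2bp1 was at 306 ± 5.59 CPM (SD, n = 3) in E14.5 and 697 ± 36.2 CPM in E12.5. Shh was at 192 ± 9.92 and 564 ± 14.9 CPM, and Robo2 at 36.6 ± 4.68 and 129 ± 5.12 CPM. Pigr was at 4.02 ± 0.276 CPM in E14.5 and 1.04 ± 0.488 CPM in E12.5, and Olfm4 at 2.38 ± 0.282 and 1.49 ± 1.29 CPM. The summed oncofetal list was at 2698, 2764 and 2623 CPM in E14.5, between the ISC and E12.5 sums.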
